A study of Mus musculus with 2 samples.

Results

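The Ccl4/Jaml cells described here were mature neutrophil-like cells in a sort labelled as osteal macrophages (Omacs), the macrophages that lie on bone surfaces. They were picked from the single-cell counts as barcodes in which Ccl3, Ccl4 and Jaml together made up at least 0.1% of the gene UMIs (unique molecular identifiers, each of which counts 1 captured RNA molecule). The rule also asked for Stfa2, Stfa2l1 and Cstdc5 together below 0.2% of UMIs, which removed stefin-high late neutrophils, and for Camp, Ngp and Ltf together below 1%, which removed immature neutrophils. Fewer than 2 UMIs of Mki67 and Top2a were allowed, Prg4 and Dcn had to stay below 0.5%, and S100a8 and S100a9 had to reach 5%. Of 2349 barcodes, 212 met all criteria. Those values chose the cells and are given below only as a description.

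Both groups were female BALB/c mice whose bone lining cells were sorted by CD11b, F4/80 and CD68 from femurs and vertebrae 4 weeks after surgery. OVX mice had their ovaries removed, and sham mice had the operation without removal. Before the sort, the bone pieces were digested with trypsin and then overnight with collagenase D. The part of this handling in the RNA levels below was not tested. Cells of 1 pool of mice per condition were tagged with hashtag antibodies, hashtag 1 for OVX and hashtag 2 for sham, and run together in 1 library that counts RNA from its 3′ end. Neither condition was replicated, so no test between them was possible, a difference between conditions cannot be told apart from one between these pools, and all intervals are exact 95% intervals that cover counting error only. By hashtag, 81 of the 212 cells came from OVX, 116 from sham, 10 carried both hashtags and 5 neither.

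Neutrophils are short-lived phagocytes that leave the marrow with stored granule proteins and make relatively few new transcripts until they are stimulated. Stimulation through pattern receptors or cytokines is known to act through NF-kB, and the stimulated cells then make chemokines such as Ccl3, Ccl4 and Cxcl2, which draw in further leukocytes, and the pyrogenic cytokine Il1b. Jaml encodes a junctional adhesion molecule-like receptor that takes part in leukocyte passage across epithelium. In bone, myeloid cytokines of this kind are known to act on osteoclast formation.

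The neutrophil identity held by markers that the rule did not use. Apart from S100a8 and S100a9, which the rule used, all 10 genes of the neutrophil marker list had UMIs in the Ccl4/Jaml cells, among them the G-CSF receptor gene Csf3r at 1308 CPM (UMIs per 1000000 gene UMIs of the group, 95% interval 1224 to 1395), the chemokine receptor gene Cxcr2 at 2158 CPM and Ly6g at 1150 CPM. Against the resting cells, 4 of these 10 genes were higher and 6 lower, and with equal weight per cell 6 were higher. The 2 that were 2-fold lower were Hdc, at a ratio of 0.48, and Retnlg, at 0.35. Csf3r was found in 182 of the 212 cells, and Itgam, which encodes the CD11b of the sort, in 206. For Adgre1, which encodes the F4/80 of the sort, the count over the 212 cells was 0, which allows a share of cells with a UMI of up to 1.42% when 3 counts are taken as the limit for a count of 0. C1qa, C1qb, C1qc, Mrc1, Siglec1, Vcam1, Cd163 and Timd4 were at 0 as well, so that 9 of the 14 macrophage markers had no UMI. The macrophage list summed to 152 CPM, of which Cd68, the third antigen of the sort, gave 96.9. The summed level was 244 CPM in OVX and 73.1 in sham Ccl4/Jaml cells. The early granule genes Elane, Mpo, Prtn3 and Ctsg were at 0, and so were all markers of B or plasma cells and of basophils or mast cells. The dendritic cell list summed to 155 CPM against 14.8 in the resting cells, and 1 OVX cell described below held most of its Cd74. The monocyte list summed to 835 CPM (Lgals3 664) against 1176 in the resting cells, and the osteoclast list to 1929, almost all of it Mmp9, which neutrophils also store as gelatinase. The early and secondary granule list summed to 1752 CPM against 4019.7 in the resting cells, the stromal list to 217 and the cycling list to 62.7. The rule itself capped Ngp and Ltf of the granule list, Dcn and Prg4 of the stromal list, and cycling genes. The choice of cells thus kept these sums low, and they are given only as a description. Endothelial markers summed to 84.0 CPM, T or NK cell markers to 31.3, eosinophil and megakaryocyte markers to 4.27 each and erythroid markers to 1.42. The part of any of these lists in the results below was not tested. The sample label of macrophage was therefore not borne out for these cells.

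The compared cells were 600 resting mature neutrophils, which met the same rule with the 3 genes below 0.1% of UMIs, and 600 stefin-high late neutrophils, which met it with the stefin genes at 0.2% or more and with no condition on the 3 genes. A Ccl4/Jaml cell held a median of 2643 gene UMIs (528 to 20137) and 893.5 genes, a resting cell 3515 UMIs and a stefin-high cell 5095. The 212 cells together held 702060 UMIs, 323692 of them in OVX and 342152 in sham cells. Medians were 2977 UMIs in OVX and 2481 in sham. The stromal cells of the library (189 barcodes with Prg4 and Dcn at 0.5% or more, median 20523 UMIs) served as a measure of free RNA for genes that they do not make themselves. Cxcl1 and Cxcl2 were abundant in the stromal cells, so for these genes they give no such measure. Stromal cells were also far deeper, so their shares after thinning may understate the free RNA of a shallower cell.

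At the edge of the rule a single UMI decided. The 3 genes gave a median of 0.189% of a cell's UMIs, with quartiles of 0.135% and 0.341% and a highest value of 2.91%. In UMIs, the median was 6, with quartiles of 3 and 10 and a highest value of 361. There were 13 cells with 1 UMI of the 3 genes and 63 with 3 or fewer. The cell just inside the threshold had 1 UMI of the 3 genes among 998 (0.1002%), and the cell just outside it had 6 among 6020 (0.0997%), so a shallow cell could enter with less evidence than a deep one that was left out. The diagonal bands in the plot of single cells are cells with 1, 2 or 3 such UMIs.

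**Figure D1:**
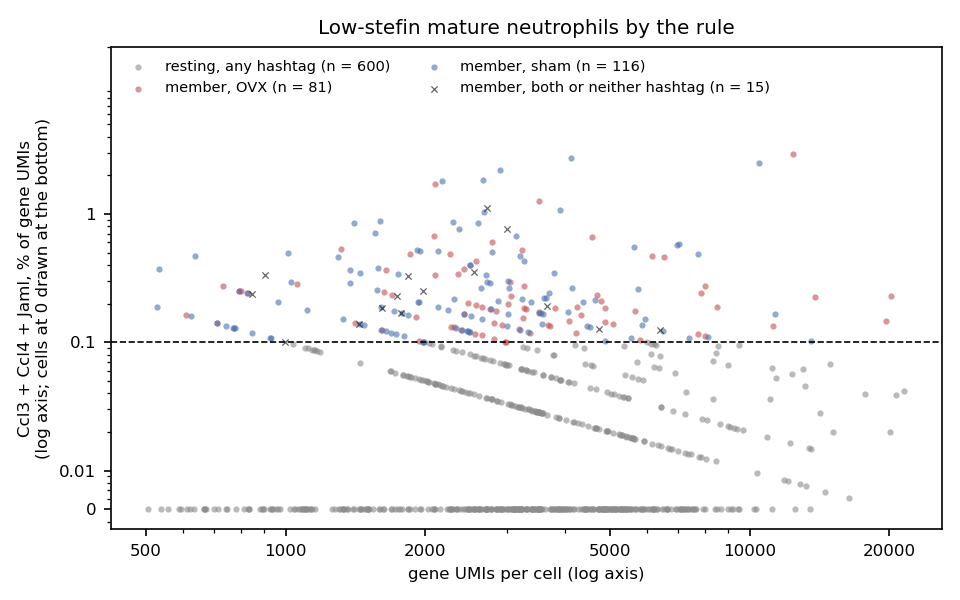
Each point is 1 low-stefin mature neutrophil, with its gene UMIs on the x axis and the percentage of them from Ccl3, Ccl4 and Jaml on the y axis (both log axes, cells at 0 drawn at the bottom). The dashed line is the threshold of 0.1%, and the 212 cells above it span 528 to 20137 UMIs, while the 600 resting cells lie below it.

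The criterion on S100a8 and S100a9 also set an edge. Of 458 barcodes over the threshold for the 3 genes, 158 had too much stefin RNA and 86 too little S100a8 and S100a9, and 78 failed on S100a8 and S100a9 alone. These 78 barcodes (33 OVX, 36 sham) had a median of 1764 UMIs, with Csf3r at 1329 CPM, Cxcl2 at 8896, Ccl4 at 1878 and Clec4n at 1997, close to or above the levels inside the rule. They also carried the platelet gene Pf4 at 4854 CPM, of which 1 barcode gave 68.0%, so they were not a uniform group. The highest S100a8 and S100a9 share outside was 4.87% and the lowest inside 5.03%.

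The rule's genes lie at separate places of the genome (GRCm38). Ccl3 (chr11:83647844-83649355, minus strand) and Ccl4 (chr11:83662584-83664683, plus strand), which encode MIP-1 alpha and MIP-1 beta, stand next to each other in a chemokine cluster that also holds Ccl9 and Ccl6, and Wfdc17 (chr11:83703991-83706268), a whey acidic protein gene, follows on the same strand as Ccl4. Jaml lies on chromosome 9 (chr9:45079183-45108534, plus strand), directly after Mpzl2 and Mpzl3. The promoters of Ccl3 and Jaml, which chose the cells, and of the neighbouring chemokine genes Cxcl2 and Cxcl1, which took no part in the choice, are printed from RefSeq (GRCm38.p6), 250 bases before to 50 after the start, 5′ to 3′ on the gene's strand. Cxcl2 was 2.55-fold higher than in resting cells, while the ratio of Cxcl1 rested largely on 1 cell, as given below. Capitals mark the kB motif, the site family of NF-kB, searched on both strands.
Ccl3, chr11:83649329-83649628, minus strand: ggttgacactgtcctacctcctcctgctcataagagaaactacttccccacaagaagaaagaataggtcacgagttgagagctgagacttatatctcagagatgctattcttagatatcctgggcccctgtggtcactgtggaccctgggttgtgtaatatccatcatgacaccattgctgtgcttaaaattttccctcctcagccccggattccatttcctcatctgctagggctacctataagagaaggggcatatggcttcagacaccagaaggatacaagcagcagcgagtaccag
Jaml, chr9:45078933-45079232, plus strand: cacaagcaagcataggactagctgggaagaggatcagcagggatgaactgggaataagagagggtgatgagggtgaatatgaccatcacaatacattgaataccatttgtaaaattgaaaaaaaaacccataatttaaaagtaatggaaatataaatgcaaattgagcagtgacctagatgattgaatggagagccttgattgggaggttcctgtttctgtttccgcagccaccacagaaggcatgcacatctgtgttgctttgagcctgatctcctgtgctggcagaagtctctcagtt
Cxcl2, chr5:90903649-90903948, plus strand: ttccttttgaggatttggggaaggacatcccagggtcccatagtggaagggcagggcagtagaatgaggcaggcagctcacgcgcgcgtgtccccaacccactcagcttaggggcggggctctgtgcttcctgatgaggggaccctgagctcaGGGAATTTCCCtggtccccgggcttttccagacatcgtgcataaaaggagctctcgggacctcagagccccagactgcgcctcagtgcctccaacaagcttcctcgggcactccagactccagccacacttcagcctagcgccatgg
Cxcl1, chr5:90890995-90891294, plus strand: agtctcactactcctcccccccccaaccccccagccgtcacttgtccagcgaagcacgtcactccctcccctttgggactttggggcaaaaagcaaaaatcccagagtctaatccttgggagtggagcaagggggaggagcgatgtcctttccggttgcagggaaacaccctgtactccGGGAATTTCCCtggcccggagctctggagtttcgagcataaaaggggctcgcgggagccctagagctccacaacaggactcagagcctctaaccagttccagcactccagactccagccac
Cxcl2 and Cxcl1 hold the same run of letters, GGGAATTTCCC, at 97 and 71 bases before the start, where it matches the motif in overlapping frames. The windows of Ccl3, Jaml, Il1b, Mefv, Wfdc17 and Cd274 hold no match, and that of Nfkbia, an NF-kB inhibitor gene and target, holds 1. Among 32851 RefSeq promoters of 300 bases, 1480 (4.51%) hold a match. A match is a description of letters and not a site shown to be used. The table held no window for Ccl4, Clec4n and Hcar2.

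The genes of the rule differed as they had to. Ccl4 lay at 1055 CPM in the Ccl4/Jaml cells and 22.5 in the resting cells, Ccl3 at 2137 and 96.8, and Jaml at 541 and 72.3. They were also above the unselected stefin-high cells, where Ccl4 was at 174 CPM, Ccl3 at 509 and Jaml at 164. After thinning every cell to 1000 UMIs, which left out 24 of the 212 cells, Ccl3 was found in 61.2% of Ccl4/Jaml cells, Ccl4 in 26.6% and Jaml in 42.0%, against 1.12% of thinned stromal cells for each of the 3. Without thinning the shares were 72.6%, 36.3% and 61.3%, and 12.7%, 5.29% and 3.70% in the stromal cells.

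Outside the rule, the Ccl4/Jaml cells had more chemokine and cytokine RNA, more of several sensing receptors and inflammasome genes, and less RNA of the granule genes Retnlg, Lcn2 and Olfm4 and of the IFITM family than resting mature neutrophils. Of 1376 genes at 100 CPM or more in either group, 52 were at least 2-fold higher in the Ccl4/Jaml cells (3.78%) and 32 at least 2-fold lower (2.33%). Because the median gene was higher by 0.17 on the log2 scale, setting that median to 0 gave 31 higher and 40 lower genes. Over the genes outside the rule, 915 of 1365 (67.0%) were higher by any amount and 682 with the median set to 0, which are the shares to hold each list's count of higher genes against. A gene that reached 100 CPM in 1 group only had to be higher in that group, and 30 of the 49 higher genes outside the rule entered through the Ccl4/Jaml cells alone and 19 of the 31 lower genes through the resting cells alone. As a description of the same cells split by pool, which the choice of the genes largely fixed, 10 of the 49 were 2-fold higher and 14 of the 31 were 2-fold lower in both OVX and sham.

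**Figure D2:**
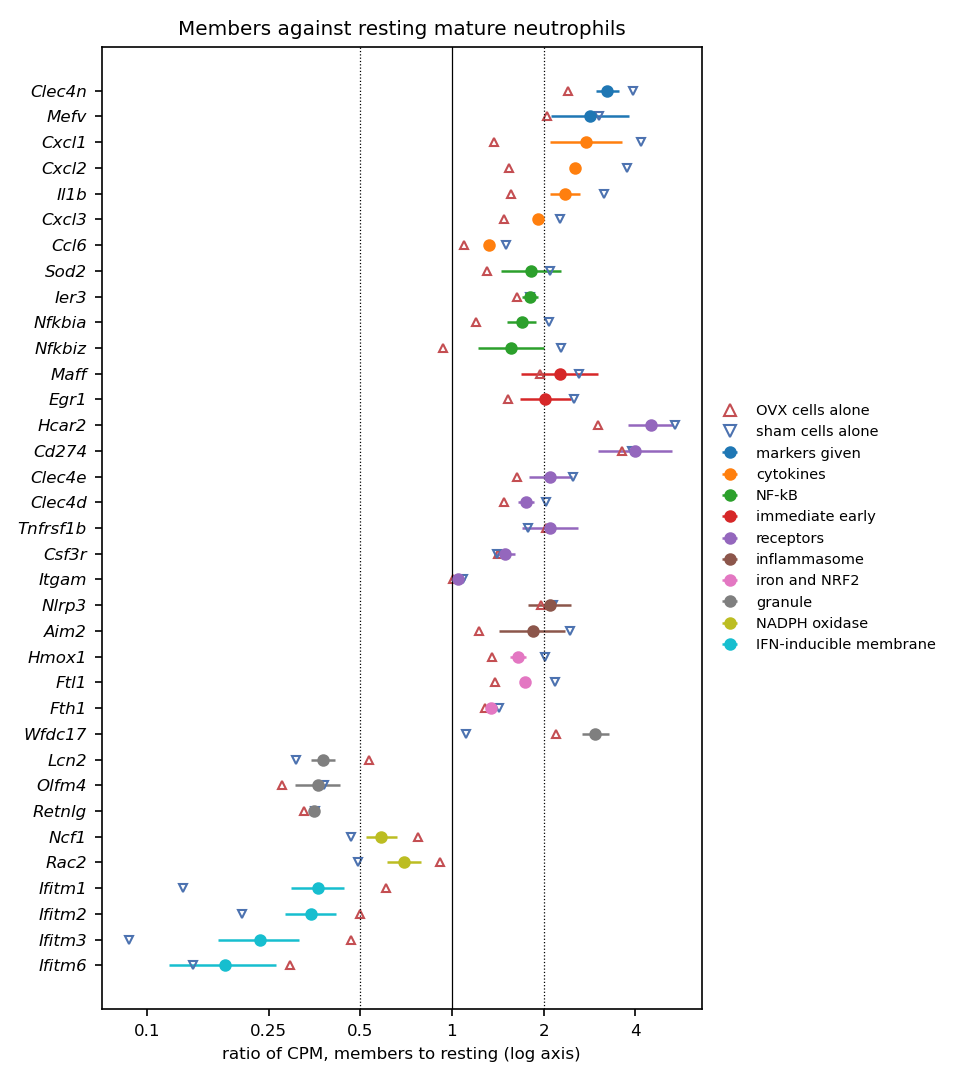
Ratio of CPM in Ccl4/Jaml cells (labelled members) to resting mature neutrophils for genes outside the rule (log axis), coloured by list. Filled points with bars are all cells with exact 95% counting intervals, and open triangles are the OVX and the sham cells alone. Dotted lines mark 2-fold. Hcar2 lies highest at 4.49 and Ifitm6 lowest at 0.18, and each reached 100 CPM in 1 group only.

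Of the 24 chemokine and cytokine genes on the list outside the rule, 7 reached 100 CPM in both groups, and all 7 were higher in the Ccl4/Jaml cells, 2 of them by 2-fold. Cxcl1 and Tgfb1 reached it in the Ccl4/Jaml cells only, so their direction was fixed by the minimum. The neutrophil attractant Cxcl2 stood at 6330 CPM in OVX and 8485 in sham Ccl4/Jaml cells, and at 4096 and 2263 in OVX and sham resting cells. Both Ccl4/Jaml values lay above both resting values, and over all cells the ratio was 2.55 (95% interval 2.46 to 2.64). Cxcl2 was also abundant in the stromal cells (5682 CPM), where it was found in 58.4% of thinned cells against 92.6% of Ccl4/Jaml and 68.1% of resting cells. Il1b stood at 667 and 786 CPM in OVX and sham Ccl4/Jaml cells and at 428 and 248 in the resting cells, a ratio of 2.35 (2.10 to 2.64). The attractant Cxcl3 was 1.92-fold and Ccl6, which was abundant in all these neutrophils, 1.33-fold higher. Cxcl1 was 2.76-fold higher, but 52 of its 97 UMIs came from 1 sham cell, and without that cell it was at 64.4 CPM against 50.1 in the resting and 5500 in the stromal cells. Il6, Il10, Il12a, Cxcl10 and Tnfsf9 had no UMI in the 212 cells, which allows up to 4.27 CPM for each.

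No gene of the NF-kB list reached 2-fold, although 6 of 7 were higher, among them all 4 that reached 100 CPM in both groups. The stress-response gene Ier3 was 1.81-fold and the inhibitor gene Nfkbia 1.69-fold higher. The antioxidant enzyme gene Sod2 was 1.82-fold (1.45 to 2.28) higher, but reached 100 CPM in the Ccl4/Jaml cells only. The subunit gene Nfkb1, which reached 100 CPM in the resting cells only, was at 0.86. For Sod2 and Nfkb1 the minimum fixed the direction. Among immediate early genes, which are switched on within minutes of a stimulus, 14 of 16 were higher, 13 with the median set to 0, and 13 of the 15 at 100 CPM in both groups. The small Maf gene Maff (2.26-fold) and the zinc finger gene Egr1 (2.03-fold, 1.67 to 2.46) passed 2-fold, the former having reached 100 CPM in the Ccl4/Jaml cells only, and Jund stood at 0.89. The part of the digestion before the sort in the levels of immediate early genes was not tested.

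Among pattern and chemoattractant receptors 14 of 16 were higher, 12 with the median set to 0, and all but Tlr13 reached 100 CPM in both groups. Clec4n, which encodes the fungal sugar receptor dectin-2 and was given as a marker of these cells, stood at 1471 CPM in OVX and 1482 in sham Ccl4/Jaml cells, and at 613 and 376 in the resting cells (ratio 3.24, 2.97 to 3.53). Its neighbour in function Clec4e, which encodes the receptor Mincle, was 2.11-fold higher, and Clec4d 1.75-fold. The toll-like receptor genes Tlr13 and Tlr2 had ratios of 1.81 and 0.92. With 100 CPM required in either group, the highest ratio outside the rule belonged to Hcar2, the receptor gene for niacin and ketone bodies, at 442 CPM against 98.3 (4.49-fold, 3.79 to 5.32). Like Cd274, it reached 100 CPM in the Ccl4/Jaml cells only, so the minimum fixed its direction. Hcar2 stood at 241 CPM in OVX and 614 in sham Ccl4/Jaml cells, both above the 79.8 and 114 of the resting cells. The second was Cd274, which encodes the checkpoint ligand PD-L1, at 207 and 120 CPM in OVX and sham against 57.2 and 30.7 (3.99-fold, 3.02 to 5.27). After thinning, Cd274 was found in 17.0% of Ccl4/Jaml cells (11.9% to 23.2%), 4.23% of resting cells and in no stromal cell. Without thinning the shares were 26.4%, 9.50% and 3.17%.

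Of the 4 inflammasome genes at 100 CPM in both groups 3 were higher, Il1b and Nlrp3 by 2-fold, while Mefv and Aim2 reached it in the Ccl4/Jaml cells only. Mefv, which encodes the inflammasome sensor pyrin and was given as a marker, stood at 142 CPM in OVX and 84.8 in sham Ccl4/Jaml cells, and at 69.0 and 28.0 in the resting cells (2.84-fold, 2.11 to 3.82). It rested on 83 UMIs in 53 cells, and after thinning was found in 13.3% of Ccl4/Jaml cells against 4.40% of resting cells. The sensor gene Nlrp3 was 2.09-fold (1.77 to 2.47) higher at nearly the same level in both pools, 309 CPM in OVX and 348 in sham. In the survival and death list 12 of 13 were higher, 11 with the median set to 0, and 8 of the 9 at 100 CPM in both groups. Those past 2-fold both entered through the Ccl4/Jaml cells alone, the proapoptotic gene Bcl2l11 at 2.15-fold and the TNF receptor gene Tnfrsf1b at 2.11-fold, while the antiapoptotic gene Mcl1, a neutrophil survival factor, was at 1.13. All 8 P53 targets and arrest genes were higher, 7 with the median set to 0 and 5 within OVX alone. Ninj1, whose protein ruptures the membrane of dying cells, was 2.09-fold and the cell cycle inhibitor gene Cdkn1a 1.68-fold higher.

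Of 19 genes for thioredoxin, NRF2 targets and iron, 17 were higher, 15 with the median set to 0 and 15 of the 17 at 100 CPM in both groups, and none passed 2-fold. The median log2 ratio was 0.47. The ferritin light chain gene Ftl1 stood at 14532 CPM in OVX and 25880 in sham Ccl4/Jaml cells against 10472 and 11888 in the resting cells (1.74-fold). The haem-degrading enzyme gene Hmox1 was 1.65-fold higher, at 1307 and 3227 CPM against 968 and 1599, so that the OVX Ccl4/Jaml cells lay below the sham resting cells. The selenoprotein gene Gpx1 was at 0.77.

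Of 18 granule and maturity genes 11 were lower, 4 of them by 2-fold, with a median log2 ratio of -0.08, and with equal weight per cell 9 were lower. Retnlg, a resistin-family gene of late neutrophils, stood at 5456 CPM in OVX and 5945 in sham Ccl4/Jaml cells against 16649 and 16754 in the resting cells (ratio 0.35, 0.34 to 0.36). Lcn2, which encodes the iron-scavenging lipocalin of secondary granules, was at 0.38 and Olfm4 at 0.36. Wfdc17 was 2.96-fold higher over all cells, yet 2.20-fold in OVX alone and 1.11-fold in sham alone, since its level followed the pool. Among 6 NADPH oxidase genes none passed 2-fold. Of these 5 were lower, all 6 with the median set to 0 and 4 with equal weight per cell. The subunit gene Ncf1 was at 0.59 (0.52 to 0.66) and the GTPase gene Rac2 at 0.70. In the interferon list, Ifitm1, Ifitm2 and Slfn4 reached 100 CPM in both groups, and the first and second of them, of the antiviral IFITM family, were 2-fold lower. Ifitm3 reached it in the resting cells only and Cd274 in the Ccl4/Jaml cells only, so the minimum fixed their direction. Ifitm3 stood at 95.8 CPM in OVX and 29.2 in sham Ccl4/Jaml cells against 205 and 336 in the resting cells (0.23, 0.17 to 0.31), Ifitm2 was at 0.34 and Ifitm1 at 0.36. Ifitm6, outside that list, was at 0.18 (0.12 to 0.26), and it too reached 100 CPM in the resting cells only, so its direction was fixed. Adhesion and glycolysis genes had none past 2-fold in either direction, with 8 of 13 and 9 of 15 higher but 3 and 5 with the median set to 0. Of the 12 genes that the study named for senescence and oxidative stress 9 reached 100 CPM, of which Mefv passed 2-fold and 4 were higher in all.

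Pf4 was lower still, with a ratio of 0.01. In the resting cells Pf4 came from 15 of 600 cells, and 1 cell held 47.9% of its UMIs, so this ratio describes a few resting barcodes. S100a8 and S100a9, used in the rule in both groups, made up 16.9% of all UMIs in the Ccl4/Jaml cells and 25.8% in the resting cells.

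Against stefin-high late neutrophils, 51 of 1362 genes were at least 2-fold higher in the Ccl4/Jaml cells (3.74%) and 27 lower (1.98%). Outside the rule these were 48 higher and 24 lower, of which 19 and 10 reached 100 CPM in both groups. Hcar2 was 3.99-fold (3.44 to 4.62) higher, Cd274 3.26-fold, Clec4n 2.87-fold, Mefv 2.66-fold and Il1b 2.37-fold. Of these, Cd274 and Mefv reached 100 CPM in the Ccl4/Jaml cells only, so the minimum fixed their direction. Cxcl2 was 1.93-fold higher, short of 2-fold. The stefin-high group held 460 OVX and 111 sham cells, so its mean leant to the OVX pool, and Wfdc17 (1.15-fold) and Thbs1 (2.29-fold), which followed the pool, must be read with that in view. Retnlg was at 0.45, Lcn2 at 0.44 and Ifitm3 at 0.34. Ifitm3 reached 100 CPM in the stefin-high cells only, so its direction was fixed as well.

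Within the Ccl4/Jaml cells, the 3 chosen genes were carried by partly different cells. Ccl3 had UMIs in 154 cells, Jaml in 130 and Ccl4 in 77. Ccl3 and Ccl4 were seen together in 55 cells, Ccl3 and Jaml in 79, and Ccl4 and Jaml in 48. The cells that passed 0.1% on Jaml alone numbered 43 (median 2332 UMIs), those that passed on Ccl3 and Ccl4 alone 116 (median 2946), those that passed on both 23, and 30 passed only on the sum. In the 116 cells Jaml was at 166 CPM, and in the 43 cells Ccl3 was at 67.6 and Ccl4 at 48.3.

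The Jaml cells and the chemokine cells differed in genes that took no part in the split. Retnlg was at 1999 CPM in the 43 Jaml cells (1736 to 2290) and 7160 in the 116 chemokine cells (6907 to 7420). Hcar2 was at 86.9 CPM against 582, and Hmox1 at 1110.5 against 2651. In the other direction, Il1b was at 1091 CPM in the Jaml cells (899 to 1312) and 540 in the chemokine cells (472 to 615), and Cdkn1a at 840 against 383. Clec4n was at 1854 against 1200.5 CPM, while Cd274 (193 and 147) and Nfkbia (589 and 708) had overlapping intervals. The genes before Jaml on chromosome 9 differed in the same direction as Jaml, while those after it, Gm10684, Scn2b and Scn4b, had 1 UMI or none in either group. Mpzl3 (chr9:45055186-45077436) was at 280 CPM in 16 of the 43 Jaml cells and 52.3 in 18 of the 116 chemokine cells, a ratio of 5.35 (2.97 to 9.78), and Mpzl2 (chr9:45039799-45054015) had a ratio of 5.13 (2.69 to 9.91), although from 5 of the 43 cells. Mpzl2 and Mpzl3 were singled out after their values were seen. The split also followed the pools, since Jaml alone admitted 30.9% of OVX Ccl4/Jaml cells (21.1% to 42.1%) and 13.8% of sham (8.09% to 21.4%), while Ccl3 and Ccl4 alone admitted 44.4% and 61.2%.

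A few cells carried much of the chemokine RNA. For Ccl4, 1 sham cell held 223 of 486 UMIs and 1 OVX cell 89 of 217, and the 5 richest cells held 75.7% and 71.9%. For Ccl3, 1 OVX cell held 272 of 663 UMIs (41.0%). Jaml was spread more evenly, with at most 6.28% of a pool's UMIs in 1 cell, and so were Clec4n (8.40%) and Cxcl2 (9.20%). Most of Hcar2 in OVX came from 5 cells (67.9%), against 32.4% in sham.

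**Figure D3:**
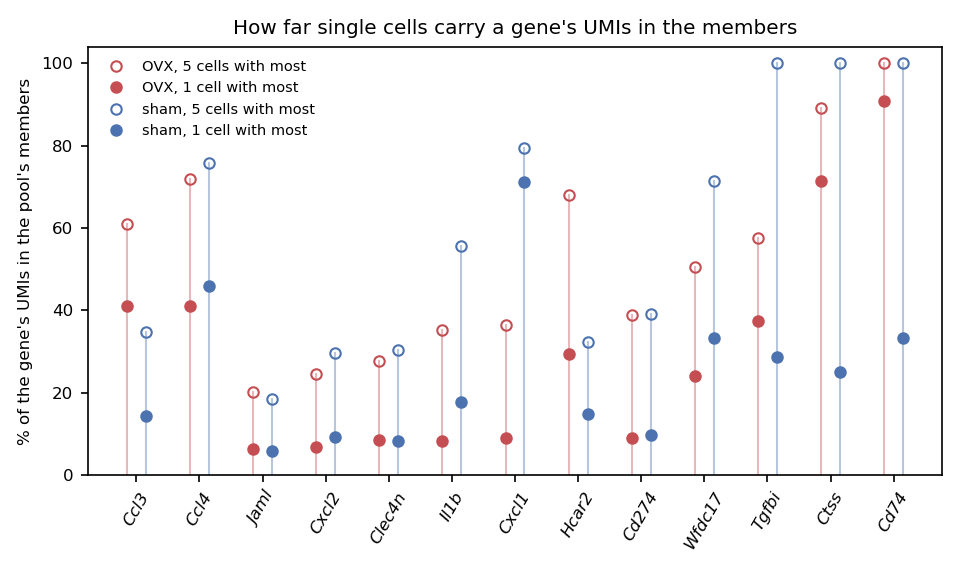
Share of each gene's UMIs (y axis, percent) held by the 1 cell (filled) and the 5 cells (open) with most of that gene, in the 81 OVX (red) and 116 sham (blue) Ccl4/Jaml cells. For Cxcl1 in sham and for Ctss and Cd74 in OVX 1 cell holds most UMIs and for Ccl4 41.0% and 45.9%, whereas Jaml, Cxcl2 and Clec4n are spread.

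The Ccl4/Jaml cells were a smaller share of OVX than of sham cells. They made up 81 of 1059 OVX cells (7.65%, exact Clopper-Pearson interval 6.12% to 9.42%) and 116 of 981 sham cells (11.8%, 9.87% to 14.0%), a ratio of 0.647. The whole makeup of the pools differed, with resting cells at 18.0% of OVX and 36.4% of sham and stefin-high cells at 43.4% and 11.3%. As a share of low-stefin mature neutrophils alone, the direction was the opposite, with 29.8% of OVX (24.4% to 35.6%) and 24.5% of sham (20.7% to 28.7%), and the intervals overlapped. Among stefin-high cells 27.2% of OVX (125 of 460) and 18.0% of sham (20 of 111) passed the same threshold for the 3 genes, again with overlapping intervals. So the lower share of OVX depended on the denominator.

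Within the Ccl4/Jaml cells, the OVX pool had more RNA of the whey acidic protein genes Wfdc17 and Wfdc21, of Fas and of Csf3r, and less of Thbs1, Hmox1, Ftl1 and Hcar2. Of 1454 genes at 100 CPM or more in either pool, 233 were at least 1.5-fold higher in OVX (16.0%) and 188 at least 1.5-fold lower (12.9%). With such small pools of cells these shares are the background for every list, and the median log2 ratio was -0.01. Part of these differences was present in the other neutrophils. Of 229 higher genes outside the rule, 72 were also 1.5-fold higher in OVX resting cells and 2 were 1.5-fold lower there, and 64 and 14 in the stefin-high cells. Of 186 lower genes, 23 were also lower and 4 higher in the resting cells, and 33 and 4 in the stefin-high cells. Over all 1443 genes outside the rule, 8.32% were 1.5-fold higher and 4.30% lower in OVX resting cells, and 7.55% and 5.61% in stefin-high cells. The minimum again fixed part of the counts, since 135 of the 229 reached 100 CPM in OVX only and 90 of the 186 in sham only.

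**Figure D4:**
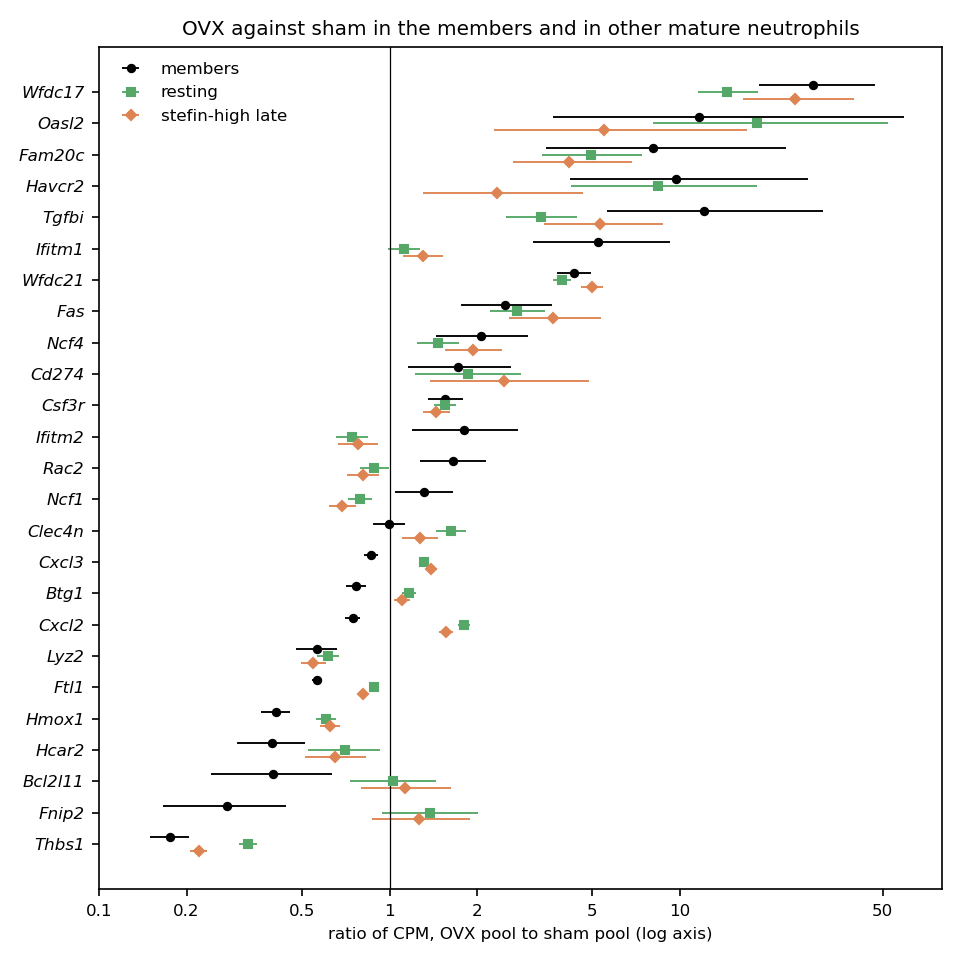
Ratio of CPM in the OVX pool to the sham pool (log axis) for named genes in Ccl4/Jaml cells (black circles, labelled members), resting (green squares) and stefin-high late neutrophils (orange diamonds), with exact 95% counting intervals. Wfdc17 and Thbs1 lie far from 1 in all 3 groups, whereas Cxcl2, Cxcl3 and Btg1 lie below 1 only in the Ccl4/Jaml cells.

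With 100 CPM required in either pool, Wfdc17 had the highest ratio, 28.8 (18.7 to 46.9). It stood at 1767 CPM in OVX and 61.4 in sham Ccl4/Jaml cells, at 803 and 55.2 in the resting cells and at 991 and 39.7 in the stefin-high cells, with OVX above sham in each. It was found in 47 of 81 OVX and 11 of 116 sham Ccl4/Jaml cells, and after thinning in 48.0% and 1.98%. Wfdc21 stood at 3374 CPM in OVX and 780 in sham (4.32-fold, 3.78 to 4.96). Other genes of the granule and maturity list were closer to 1, and of its 17 genes at 100 CPM in both pools 6 were 1.5-fold higher and 3 lower, Lyz2, Mmp25 and Olfm4.

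Of 26 interferon-response genes 3 reached 100 CPM in both pools, Cd274, Ifitm2 and Slfn4, and Cd274 and Ifitm2 were 1.5-fold higher in OVX. Oasl2, Ifitm1 and, outside that list, Havcr2, Fam20c, Ifi27l2a, Wfdc17, Cd74, Ctss, Tgfbi and Stfa3 reached it in OVX only, so the minimum fixed their direction. The 2′-5′ oligoadenylate synthetase-like gene Oasl2 stood at 102 CPM in OVX and 8.77 in sham (11.6-fold, 3.65 to 59.3, from 17 and 3 cells), Ifitm1 at 275 and 52.6, and Cd274 at 207 and 120 (1.73-fold, 1.15 to 2.61). Oasl2 was also higher in OVX resting cells (75.5 against 4.1 CPM), whereas the ratio of Ifitm1 there was 1.12. For Ifitm1, 1 OVX cell held 41.6% of the 89 OVX UMIs, and without the richest cell of each pool OVX stood at 166 and sham at 38.5 CPM. The immune checkpoint receptor gene Havcr2 stood at 170 and 17.5 CPM, from 26 OVX and 4 sham cells, and the secretory kinase gene Fam20c at 142 and 17.5, from 24 and 6. Ifi27l2a, an interferon-inducible gene, was 20.1-fold higher, but from 10 and 2 cells. In the NADPH oxidase list 2 of 6 were 1.5-fold higher, Ncf4 (290 and 140 CPM) and Rac2 (473 and 286). The receptor genes Csf3r (1588 and 1020 CPM) and Fpr1, for formylated bacterial peptides, were 1.56-fold and 1.63-fold higher. The death receptor gene Fas stood at 337 and 134 CPM (2.50-fold, 1.76 to 3.62), and belonged to the study's senescence and oxidative stress genes, of which 5 of the 9 at 100 CPM were 1.5-fold higher, Mefv and Ndufb9 through OVX alone. The study named those genes from the same single-cell data, so their count is not independent evidence.

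Among the largest ratios, those of Cd74, Ctss and Stfa3 came for the most part from single cells. An OVX cell with 19721 gene UMIs, 7562 hashtag 1 UMIs and 322 hashtag 2 UMIs held 40 of the 44 Cd74 UMIs, 40 of the 56 Ctss UMIs and 30 of the 80 Tgfbi UMIs, together with 30 UMIs each of the class II antigen presentation genes H2-Aa and H2-Ab1 and 976 of S100a8. Without it Cd74 was at 13.2 CPM in OVX against 8.77 in sham, Ctss at 52.6 against 11.7 and Tgfbi at 164 against 20.5. The dendritic cell list summed to 324 CPM in OVX and 11.7 in sham Ccl4/Jaml cells, with Cd74 its most abundant gene and Flt3, Xcr1, Siglech, Cd209a, Clec9a, Zbtb46 and Ccr7 at 0. Whether that barcode held more than 1 cell was not tested. Stfa3, at 127 against 5.85 CPM, had 85.4% of its OVX UMIs in 1 cell, a different one.

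At the same minimum, the lowest ratio belonged to Thbs1, which encodes the matrix protein thrombospondin-1, at 0.17 (0.15 to 0.20). It stood at 587 CPM in OVX and 3355 in sham Ccl4/Jaml cells, 999 and 3074.5 in the resting cells and 576 and 2621 in the stefin-high cells. It was found in 31 of 81 OVX and 86 of 116 sham Ccl4/Jaml cells, and after thinning in 17.3% and 61.4%, against 7.30% of stromal cells. Without thinning it had a UMI in 95 of the 189 far deeper stromal cells. Hmox1 (1307 and 3227 CPM, ratio 0.405), Ftl1 (0.56) and Hcar2 (0.39, 0.30 to 0.51) were lower in OVX as well. Bcl2l11 stood at 80.3 and 202 CPM, and Fnip2, a folliculin partner gene in nutrient sensing, at 71.1 and 257. Both of these and Ccrl2 reached 100 CPM in sham only, so the minimum fixed their direction. The resting cells had ratios of 1.03 for Bcl2l11 and 1.38 for Fnip2. Ccrl2, a chemoattractant-binding receptor gene, was at 0.19, with 42.1% of its sham UMIs in 1 cell.

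Immediate early genes and redox genes were mixed. Of 13 immediate early genes at 100 CPM in both pools 11 were lower in OVX, 1 of them by 1.5-fold, and Fos was 2.08-fold higher. Ier2 (2.04) and Klf2 (1.54) reached the minimum in OVX only and Atf3 (0.39), a stress-induced transcription factor gene, in sham only, so it fixed their direction. Of 18 thioredoxin, NRF2 and iron genes at 100 CPM in both pools 4 were 1.5-fold lower in OVX, among them the autophagy receptor gene Sqstm1 at 0.43, and 3 were 1.5-fold higher, Gpx1 at 2.04, Sod2 at 1.78 and Prdx1 at 1.73. Over all 1077 genes outside the rule at 100 CPM in both pools 94 were 1.5-fold higher in OVX and 96 lower. At that minimum the remaining lists had 1 of 5 NF-kB genes higher and 0 lower, 1 and 0 of 16 receptor genes, 1 and 0 of 5 inflammasome genes, 3 and 2 of 12 adhesion genes, 1 and 0 of 11 survival genes, 0 and 0 of 7 P53 genes and 1 and 2 of 9 glycolysis genes.

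For the chemokines, the 9 genes outside the rule had none 1.5-fold higher in OVX and 1 lower, Cxcl1, which reached 100 CPM in sham only and whose sham level rested on the single cell named above (64.3 CPM in OVX and 61.9 in sham without the richest cell of each). Cxcl2 was lower in OVX, at 6330 against 8485 CPM (0.75, 0.70 to 0.79), and Cxcl3 was at 0.86. Il1b (0.85, 0.71 to 1.02), Clec4n (0.99, 0.87 to 1.13) and Nlrp3 (0.89, 0.67 to 1.17) had intervals that included 1, which does not show that the pools were alike. Of the rule's genes, Ccl4 stood at 670 CPM in OVX and 1420 in sham, and at 411 and 793 without the richest cell of each pool. Jaml stood at 689 and 397 CPM, from 63 of 81 OVX and 58 of 116 sham cells. Ccl3, at 2048 and 2291 CPM, came to 1256 and 1988 without the richest cells. Since these genes admitted the cells, their levels in the pools are a description of which genes admitted them.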

How the data were processed

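One 10x 3′ v3.1 library of pooled OVX and sham cells was analysed, with hashtag UMIs taken from the same table. The authors aligned the reads to mm10 with Cell Ranger and deposited whole-number UMI counts for 32285 genes and 2 hashtags in 2349 barcodes, without normalization. The submitters' processing notes give version 6.0.1 and the file header 6.0.0. The labels give 1037 OVX and 1084 sham cells loaded. By hashtag, 1059 of the 2349 barcodes were called OVX, more than the number given as loaded, and this gap was not examined.

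Hashtag calls came from the HTODemux function of Seurat 5.3.0 in R 4.3.3, with its quantile at 0.99, and barcodes with both or neither were left out of OVX against sham only. No doublet caller was run, and no barcode was filtered. UMIs were summed per group and scaled to 1000000 (CPM, not scaled by gene length, as the counts come from the 3′ end). Ratios have exact conditional binomial intervals, CPM exact Poisson and shares exact Clopper-Pearson intervals (scipy 1.17.1). Cells were thinned once with a fixed seed. Gene positions come from GENCODE M21 (32158 of 32285 gene IDs matched). 1 gene of the receptor list was not analysed here. Calculations were tested on simulated group totals with counting error only. The simulation did not include UMIs concentrated in single cells, so it does not show how the intervals do with them.

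The cells, the 14 gene lists and the 15 marker lists were chosen with earlier results of these data known. Named were the rule's genes and given markers, the 10 genes with most UMIs, the 15 highest and 15 lowest ratios to resting cells, the 10 highest and 10 lowest of OVX to sham, the leading genes of each list, and the genes the study names for senescence (147 in all, of which the text gives a part). Marker genes, genes at 0, Mmp25, Mcl1, Ier2, Klf2, Sqstm1, Prdx1, Tgfb1, Slfn4 and Ndufb9 are named besides, and Mpzl2 and Mpzl3 after their values were seen. Alternatives were other thresholds, thinning before the rule, a barcode filter, another hashtag rule, equal weight per cell, median scaling, 50 CPM and leaving out members.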

Additional observations from a re-analysis of the deposited data

Results flagged for a closer look

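Of 132 named genes outside the rule, 11 had OVX to sham ratios on opposite sides of 1 in the Ccl4/Jaml cells and in another neutrophil group, with the counting intervals of both ratios clear of 1 and 100 CPM or more in either pool. The difference itself was not tested, since there is 1 pool per condition. Lower in OVX in the Ccl4/Jaml cells and higher in OVX in both resting and stefin-high cells were Cxcl2 (0.746 against 1.81 and 1.56), Cxcl3 (0.865 against 1.32 and 1.39), Btg1, an antiproliferative gene (0.767 against 1.17 and 1.10), and Ccl6 (0.965 against 1.32 and 1.09). Retnlg went the same way against the stefin-high cells alone (0.918 against 1.09). Higher in OVX in the Ccl4/Jaml cells and lower in both other groups were Rac2 (1.65 against 0.888 and 0.810), Ncf1 (1.31 against 0.792 and 0.687), Ifitm2 (1.81 against 0.743 and 0.778) and Tmsb4x, which encodes an actin-binding thymosin (1.05 against 0.784 and 0.755). Nfkb1 (2.23 against 0.695) and Coro1a, which encodes an actin-binding coronin (1.24 against 0.913), did so against the resting cells alone. Nfkb1 reached 100 CPM only in OVX among the Ccl4/Jaml cells and only in sham among the resting cells, so the minimum fixed both directions. Cxcl2 stood at 6330 CPM in OVX and 8485 in sham in the Ccl4/Jaml cells and at 4096 and 2263 in the resting cells. More of the sham than of the OVX Ccl4/Jaml cells were admitted by Ccl3 and Ccl4 alone (61.2% against 44.4%), and the part of this in the Cxcl2 ratio was not tested.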

How the results depend on the processing

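Direction of the ratio of OVX to sham shares held under every alternative run (0.525 to 0.764), but with low-stefin mature neutrophils as denominator it did not. With the other hashtag rule (80% of at least 10 hashtag UMIs) the intervals of the shares overlapped. They were 8.05% of OVX (6.41% to 9.96%) and 10.6% of sham (8.92% to 12.5%). A threshold of 0.2% gave 102 cells, 3.21% of OVX and 6.12% of sham, and 0.05% gave 11.3% and 16.7%. At least 3 UMIs of the 3 genes gave 9.28% of sham. Without the S100a8 and S100a9 criterion (added after seeing the data) shares were 10.8% and 15.5%. Thinning before the rule left out 72 of the 212 cells for depth. Genes 2-fold higher than in resting cells numbered 31 with the median set to 0 and 79 from 50 CPM, and 2-fold lower genes numbered 63 from 50 CPM and 21 at the 0.05% threshold. Genes 1.5-fold higher in OVX numbered 513 from 50 CPM, and lower ones 366 from 50 CPM and 118 at 0.05%. The cause of these moves was not tested.

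Of 45 named genes past 2-fold against resting cells, 44 kept their direction in all alternatives run and 29 stayed past 2-fold. Of 72 past 1.5-fold between OVX and sham, 70 kept their direction and 40 stayed past 1.5-fold. Cd74 turned from higher to lower than in resting cells at 0.2% (log2 ratio -2.02). Between OVX and sham, Camp turned at 0.05% (-0.71) and with equal weight per cell (-0.077), and Ltf with equal weight (-0.032) and without the 5% of cells with most UMIs (-0.50). No paired analysis was possible because there is 1 pool per condition. Depth limits most ratios: 38 of the 212 cells had 2 or fewer UMIs of the 3 genes, and a gene at 0 may lie as high as 4.27 CPM.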
